A study of Mus musculus with 18 samples.

Results

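The nuclear factor I (NFI) family was followed through the formation of neurons in the embryonic mouse cortex. Its 4 members, Nfia, Nfib, Nfic and Nfix, were taken by gene symbol from the deposited comparison table, out of 38250 features in the count tables, and all 4 passed the filter on low counts. Cells came from the lateral cortex of C57BL/6 embryos at embryonic day 14.5, freed of meninges and ganglionic eminences, and each library was a pool of embryos from different litters. All embryos carried reporters at Btg2, a gene switched on in progenitors about to make neurons, and at the neuronal tubulin gene Tubb3. The label for genotype reads Btg2GFP/Tubb3GFP, although sample titles name the Btg2 fractions with RFP. The 3 sorted fractions were proliferating progenitors negative for Btg2 (PP), differentiating progenitors positive for Btg2 (DP) and neurons (Neuron), with 3 libraries each.

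NFI proteins are transcription factors that bind DNA as homodimers or heterodimers through a conserved N-terminal domain, and they recognise the palindrome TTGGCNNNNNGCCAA or its core TTGGC alone. In the developing cortex and hippocampus Nfia, Nfib and Nfix are known for driving radial glia, the dividing stem cells of the cortical wall, towards differentiation, and for their part in the start of astrocyte formation. Loss of Nfia, Nfib or Nfix disturbs the formation of the corpus callosum or the hippocampus in mice, whereas Nfic is best known for its part in tooth root formation.

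Nfia, Nfib and Nfix rose from PP to DP and again from DP to Neuron, and Nfic fell. Nfib changed the most among the members that rose and was 3.65-fold higher in Neuron than in PP. Nfic was 3.89-fold lower in Neuron than in PP. Nfic made up 5.46% of all NFI counts in PP and 0.507% in Neuron.

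The sequence before a start site is shown for Nfix, which rose, and Nfic, which fell. These members moved in opposite directions and have a RefSeq start within 50 bases of a GENCODE start. Of the 4 members, 3 had an entry in the RefSeq promoter table (GRCm38.p6), with 6 start sites in all. Nfix has other RefSeq starts upstream and downstream of the start used, each more than 50 bases from a GENCODE start. The 250 bases before the start used for Nfix lie on the minus strand at chr8:84773411-84773660. Those for Nfic lie on the minus strand at chr10:81427174-81427423. Both are given 5′ to 3′ with every CG pair in capitals.
Nfix: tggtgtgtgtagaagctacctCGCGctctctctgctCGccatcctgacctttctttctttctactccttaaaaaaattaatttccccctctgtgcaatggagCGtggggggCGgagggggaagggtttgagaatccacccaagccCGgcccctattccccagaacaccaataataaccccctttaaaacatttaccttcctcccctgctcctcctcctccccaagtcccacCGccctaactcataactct
Nfic: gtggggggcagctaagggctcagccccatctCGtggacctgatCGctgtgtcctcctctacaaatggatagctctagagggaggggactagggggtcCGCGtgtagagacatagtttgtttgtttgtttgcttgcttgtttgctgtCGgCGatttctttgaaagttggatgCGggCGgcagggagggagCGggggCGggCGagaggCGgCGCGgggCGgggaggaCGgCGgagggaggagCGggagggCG
The Nfic stretch held 19 CG pairs and 63.2% G and C. The Nfix stretch held 7 CG pairs and 52.4% G and C, and it carried long runs of C and T. Over 32851 stretches of the same length the median was 6 CG pairs, 46.3% held at least 7 and 19.7% held at least 19. Neither stretch had TTGGC on either strand, which 41.5% of all stretches had, and neither had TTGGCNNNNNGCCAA, which 0.0365% had. The stretches before the other Nfix starts held 11, 4 and 1 CG pairs and, in the same order, 0, 1 and 1 copies of TTGGC. The values given for Nfix above thus hold for the start shown only. No factor binding or methylation was measured here, so these letters are a description of the sequence only.

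In the coordinates of the deposited tables (mm9), Nfia (ENSMUSG00000028565) lies on the plus strand at chr4:97439425-97868605, with 10945 exonic bases in 17 merged exons. Nfib (ENSMUSG00000008575) lies on the minus strand of the same chromosome at chr4:81936077-82351654, with 14957 exonic bases in 14 merged exons. Nfix (ENSMUSG00000001911) lies on the minus strand at chr8:87223775-87324243, with 7363 exonic bases in 15 merged exons. Nfic (ENSMUSG00000055053) is the shortest gene, on the minus strand at chr10:80858931-80893750, with 6534 exonic bases in 11 merged exons. Nfic spans 34820 bases, against 429181 for Nfia.

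The 9 libraries held 34337209 to 55935128 counts each. Counts of the 4 members ran from 1246 for Nfic in a Neuron library to 176098 for Nfib in another, so counting error was small beside the spread between libraries. Marker genes followed the sort: Tubb3 stood at 87.9 ± 29.5 (SD, n = 3) CPM in PP, 581 ± 98.9 (SD, n = 3) in DP and 2384 ± 261 (SD, n = 3) in Neuron. CPM are a gene's counts divided by the scaled library total, times 1e+06. Btg2 stood at 445 ± 67.6 (SD, n = 3) CPM in PP, 888 ± 251 (SD, n = 3) in DP and 169 ± 22.2 (SD, n = 3) in Neuron. The DP library L223 stood apart from the other DP libraries in its markers: 8 radial glia genes summed to 3625 CPM there, against 2543 and 2494 CPM, and 5 intermediate progenitor genes to 2685 CPM, against 3743 and 3964 CPM.

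Nfib had the highest counts of the family in every library. Its level was 960, 1046 and 935 CPM in the PP libraries L222, L355 and L393, 1583, 1707 and 1580 CPM in the DP libraries L223, L356 and L394, and 3662, 3578 and 3495 CPM in the Neuron libraries L224, L357 and L395. Every DP library lay above every PP library and every Neuron library above every DP library. Nfib rose by 0.73 on the log2 scale from PP to DP (SE 0.0720, adjusted p = 1.25e-05) and by 1.14 from DP to Neuron (SE 0.0725, adjusted p = 5.32e-08). By CPM it ranked 46 in PP, 18 in DP and 8 in Neuron among the 14718 protein-coding genes tested. Fewer cells of a type and less RNA per cell cannot be told apart in such bulk fractions.

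Nfix, a member expressed in neural stem cells and in newborn neurons, stood at 632, 734 and 708 CPM in the PP libraries, 1175, 1147 and 1069 CPM in the DP libraries and 1553, 1658 and 1528 CPM in the Neuron libraries, in the same library order. Its groups did not overlap in either step. Nfix rose by 0.71 on the log2 scale from PP to DP (SE 0.0779, adjusted p = 2.70e-05) and by 0.48 from DP to Neuron (SE 0.0777, adjusted p = 0.000167).

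Nfia, which acts with Sox9 in the onset of gliogenesis in the spinal cord, stood at 360, 385 and 346 CPM in the PP libraries, 537, 572 and 522 CPM in the DP libraries and 806, 778 and 775 CPM in the Neuron libraries. Its groups did not overlap either. Nfia rose by 0.58 on the log2 scale from PP to DP (SE 0.0679, adjusted p = 4.34e-05) and by 0.53 from DP to Neuron (SE 0.0678, adjusted p = 2.45e-05).

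Nfic stood at 104, 122 and 127 CPM in the PP libraries, 110, 85.8 and 91.1 CPM in the DP libraries and 30.6, 28.1 and 32.1 CPM in the Neuron libraries. The Neuron libraries lay far below all others, whereas PP and DP overlapped: the DP library L223 was higher than the PP library L222. Nfic fell by 1.66 on the log2 scale from DP to Neuron (SE 0.107, adjusted p = 6.27e-08). From PP to DP it fell by 0.30 (SE 0.103, adjusted p = 0.0366), a call that did not hold in many settings. Within the 3 sets of libraries with neighbouring numbers, the log2 difference DP minus PP was 0.08 in L222 to L224, -0.50 in L355 to L357 and -0.48 in L393 to L395. The call was lost without L355 (-0.27, adjusted p = 0.104), without L393 (-0.23, adjusted p = 0.137), without L356 (-0.23, adjusted p = 0.145) and without L394 (-0.26, adjusted p = 0.116). Without the whole set L222 to L224 the fall was larger (-0.48, adjusted p = 0.00219). L223 is also the DP library with the highest sum of radial glia markers, and the part of that in the Nfic value was not tested.

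**Figure D1:**
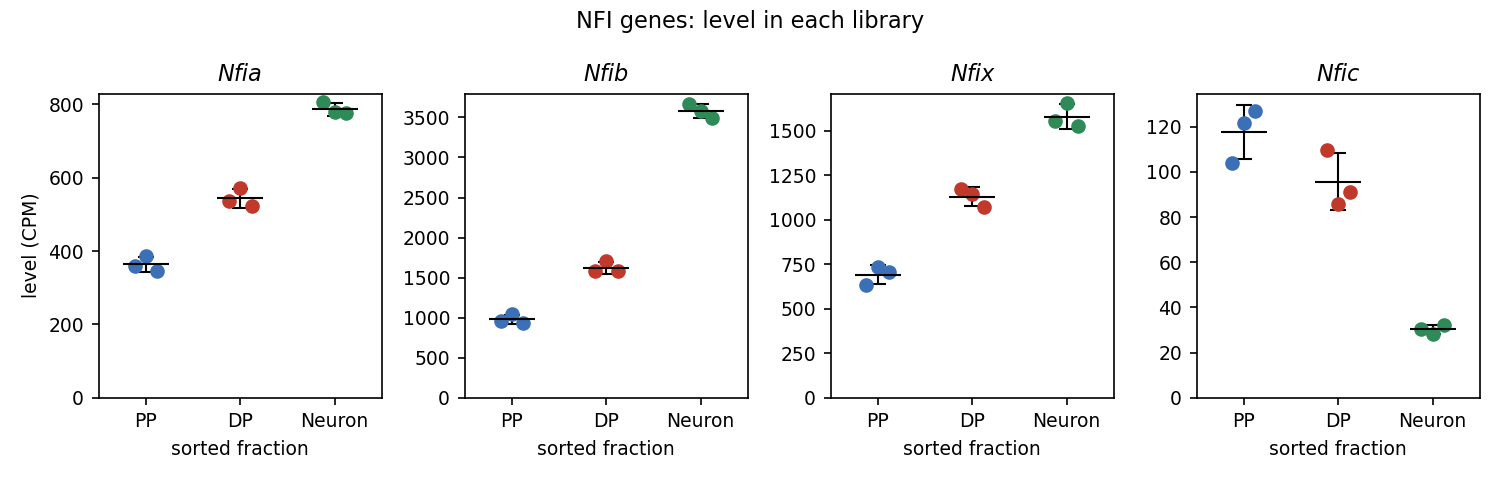
Level of each NFI gene in CPM (vertical axis, linear from 0, own scale per panel) in the 3 libraries of each sorted fraction (points), with the mean and SD (black). Nfia, Nfib and Nfix step up without overlap between fractions, and Nfic drops in Neuron to 28.1 to 32.1 CPM while PP and DP overlap.

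Calls were frequent in these data, and the members' calls stand against that background. In DP against PP, 4 of 4 members were called at an adjusted p under 0.05, against 41.4% of the 18627 features tested, with 3 higher against 21.3% of features and 1 lower against 20.2%. In Neuron against DP, 4 of 4 members were called, against 67.3% of features, 3 of them higher against 33.1% and 1 lower against 34.2%. In Neuron against PP, 4 of 4 were called, against 75.3% of features, 3 higher against 36.7% and 1 lower against 38.6%. The libraries did not overlap for 3 of 4 members in DP against PP, against 49.7% of features, for 4 of 4 in Neuron against DP, against 72.4%, and for 4 of 4 in Neuron against PP, against 78.6%. From PP to Neuron, the log2 changes were 1.11 for Nfia (SE 0.0685, adjusted p = 2.72e-08), 1.87 for Nfib (SE 0.0740, adjusted p = 6.72e-10), 1.19 for Nfix (SE 0.0786, adjusted p = 5.12e-08) and -1.96 for Nfic (SE 0.108, adjusted p = 1.03e-08). Of all calls, 51.3% were higher in DP against PP, 49.1% in Neuron against DP and 48.7% in Neuron against PP. With total counts as the only scaling these shares were 39.6%, 35.7% and 35.0%, and the median of all features moved to -0.10, -0.26 and -0.35 on the log2 scale. All 4 members kept their direction and call in each of the 3 comparisons under that scaling. Nfia was then at 0.31 and Nfix at 0.26 in Neuron against DP. In Neuron against PP the log2 changes under total counts were 0.80 for Nfia, 1.56 for Nfib, 0.88 for Nfix and -2.27 for Nfic. The sizes of the changes thus depend on the scaling. For DP against PP, the authors' deposited table listed log2 fold changes of 0.58 for Nfia, 0.73 for Nfib, -0.30 for Nfic and 0.71 for Nfix. For Neuron against DP, the authors' deposited table listed 0.56 for Nfia, 1.17 for Nfib, -1.63 for Nfic and 0.51 for Nfix.

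The steps were also set against each other, as the log2 change from DP to Neuron minus that from PP to DP. This contrast was added with the data in view, and the DP libraries enter both of its steps. In it 2 of 4 members were called, against 45.4% of features, with Nfib above 0 against 20.5% and Nfic below 0 against 24.9%. For Nfic the second step was larger in the downward direction, with a difference of -1.36 on the log2 scale (SE 0.176, adjusted p = 6.36e-05). For Nfib the second step was the larger rise by 0.41 (SE 0.125, adjusted p = 0.0185), but the call was lost without the DP library L223 (0.37, adjusted p = 0.0610) and without the DP library L394 (0.37, adjusted p = 0.0724). The steps of Nfia differed by -0.05, with a 95% interval from -0.28 to 0.18, and those of Nfix by -0.23, with an interval from -0.49 to 0.04, and neither passed the test.

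**Figure D2:**
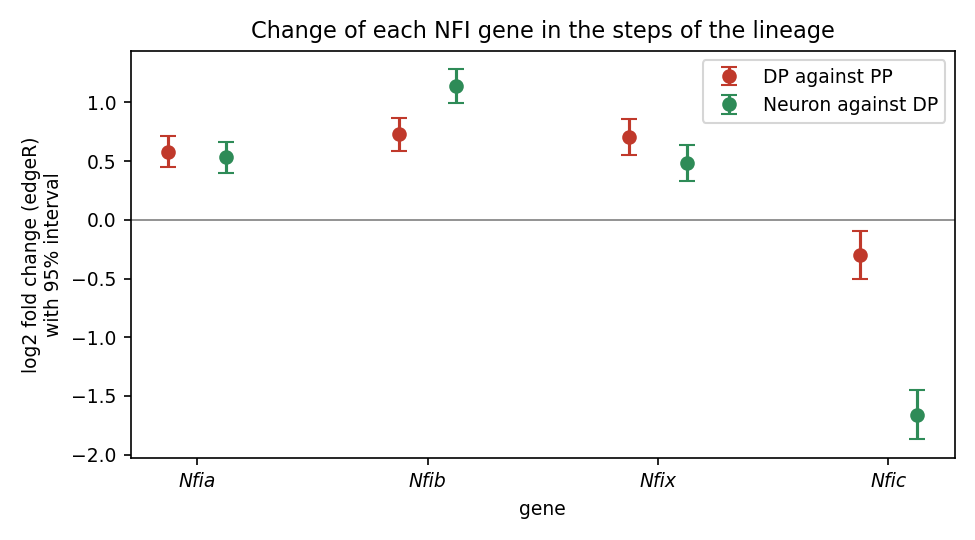
Fitted log2 fold change of each NFI gene (vertical axis) from PP to DP (red) and from DP to Neuron (green), with bars of the 95% interval. The values are 0.58 and 0.53 for Nfia, 0.73 and 1.14 for Nfib, 0.71 and 0.48 for Nfix, and -0.30 and -1.66 for Nfic.

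Per kilobase of exon, the order of the members changed along the lineage. In PP, Nfix stood first at 93.9 ± 7.25 (SD, n = 3) CPM per kb, then Nfib at 65.5 ± 3.90, Nfia at 33.2 ± 1.83 and Nfic at 18.0 ± 1.84. In DP the order was the same, with Nfix at 154 ± 7.43 CPM per kb, Nfib at 109 ± 4.87, Nfia at 49.7 ± 2.32 and Nfic at 14.6 ± 1.93. In Neuron, Nfib stood first at 239 ± 5.57 CPM per kb, then Nfix at 215 ± 9.34, Nfia at 71.9 ± 1.57 and Nfic at 4.63 ± 0.305. Neighbours in this order did not overlap between libraries in any fraction. The length is the union of all annotated exons, so a member read mostly from short transcripts is understated, and the order of Nfib and Nfix rests on it. By level per kb Nfic went from rank 3394 in PP to 4345 in DP and 8518 in Neuron among 14718 genes, and Nfib from 531 to 240 and 81.

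The ratio between members within a library does not depend on the scaling of libraries. Nfib over Nfix, per kb, was 0.650 to 0.748 in PP, 0.663 to 0.733 in DP and 1.06 to 1.16 in Neuron (adjusted p = 0.0386, exact permutation test over the 9 libraries, 6 pairs). The ratios of PP and DP overlapped, and every Neuron library was higher. Nfia over Nfix, per kb, was 0.328 to 0.383 in PP, 0.307 to 0.335 in DP and 0.316 to 0.349 in Neuron, with overlapping groups and adjusted p = 0.261 in the same exact test. Nfib over Nfic was 3.21 to 4.03 in PP, 6.30 to 8.69 in DP and 47.6 to 55.5 in Neuron (adjusted p = 0.00536, exact permutation test over the 3 groups together). The other pairs with Nfic, and Nfia with Nfib, had the same p, and 0.00357 is the smallest unadjusted p that 1680 arrangements of the libraries can give.

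The 4 members together took 0.223% to 0.248% of a library's counts in PP, 0.340% to 0.359% in DP and 0.524% to 0.532% in Neuron. Their summed level was 2153 ± 120 (SD, n = 3) CPM in PP, 3393 ± 125 in DP and 5975 ± 125 in Neuron (p = 0.00357, exact permutation test, the smallest it can give). The Neuron sum was 2.78 times that of PP, and 2.52 times when each member was divided by its length. Of the summed counts, Nfib held 45.5% ± 1.27 (SD, n = 3) in PP, 47.8% ± 1.18 in DP and 59.9% ± 0.645 in Neuron. Nfix held 32.1% ± 1.37, 33.3% ± 1.04 and 26.4% ± 0.907, and Nfia 16.9% ± 0.588, 16.0% ± 0.254 and 13.2% ± 0.248. The share of Nfic was 5.46% ± 0.489, 2.82% ± 0.392 and 0.507% ± 0.0423. The shares sum to the whole, so they are not independent, and their adjusted p lay between 0.00714 and 0.0143 in the exact permutation test over 4 members.

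**Figure D3:**
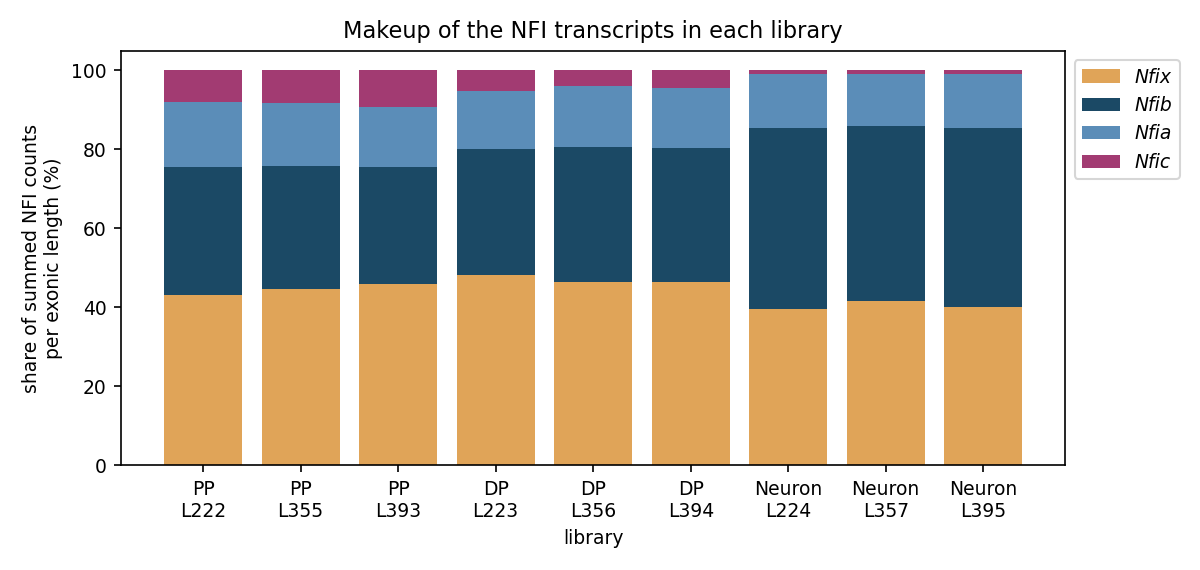
Share of each NFI gene in the summed NFI counts per exonic length (vertical axis, percent) in each of the 9 libraries (bars). Nfib reaches 44.3% to 45.8% in the Neuron libraries, above the 29.8% to 34.0% of the PP and DP libraries, and Nfic shrinks to 0.798% to 0.950%.

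The protein-coding genes with a pattern most like that of a member were found among 9873 genes with at least 10 CPM on average, by the distance between centred log2 levels over the 9 libraries. For Nfia they were Rab11fip5 (distance 0.13), Kdm4b (0.14) and Zfp637 (0.14). Nfix had Rab11fip5 (0.23), Cdk19 (0.25) and Ric8b (0.25), and Nfia itself came in place 4 (0.27). Seen from Nfia, Nfix came in place 51. For Nfib the nearest were Frmd5 (0.15), Nedd4l (0.23), which encodes a ubiquitin ligase, and Trio (0.24), which encodes a guanine nucleotide exchange factor. Frmd5 stood at 42.5 ± 1.38 (SD, n = 3) CPM in PP, 69.1 ± 5.14 in DP and 154 ± 4.03 in Neuron, a lower level with steps close to those of Nfib. For Nfic the nearest were Itpkb (0.11), an inositol trisphosphate kinase gene, Ephb3 (0.21), an ephrin receptor gene, and Rnf26 (0.25). Itpkb stood at 45.7 ± 4.61 CPM in PP, 35.8 ± 6.09 in DP and 11.7 ± 0.891 in Neuron.

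Genes that bear on NFI function were then read from 4 lists. Some of their genes also stand among the radial glia, neuron and astrocyte markers of this text, with Hes1, Hes5, Sox2, Tubb3 and Bcl11b among them. The lists are thus not independent of the markers that follow the sort. The first held 20 genes of the astroglial lineage, where NFI proteins are known as activators. From PP to DP, of the 19 that could be tested, 3 rose, against 21.3% of all features, and 13 fell, against 20.2%, with a median log2 change of -1.05 against -0.02. In Neuron against DP, 3 were higher, against 33.1% of all features, and 15 lower, against 34.2%, with a median of -2.62 against -0.04. Aldh1l1, a folate enzyme used as an astrocyte marker, fell by 2.94 on the log2 scale from PP to DP (adjusted p = 5.31e-05), and Sparcl1, a secreted matrix protein gene, fell by 2.30 (adjusted p = 6.27e-07). Sparcl1 then rose by 3.00 from DP to Neuron (adjusted p = 6.70e-09), to 33.1 ± 5.34 (SD, n = 3) CPM, above its 20.4 ± 0.948 CPM in PP. Apcdd1, an inhibitor of Wnt signalling, rose by 2.74 (adjusted p = 1.89e-07), from 24.6 ± 4.20 (SD, n = 3) CPM in PP to 164 ± 7.63 in DP. From DP to Neuron, Acsbg1, an acyl-CoA synthetase gene, fell by 6.40 (adjusted p = 1.84e-08). Zcchc24 fell by 6.27 (adjusted p = 1.06e-10), and Tnc, a matrix glycoprotein gene, fell by 6.25 (adjusted p = 2.15e-10). S100b did not pass the filter on low counts.

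The second list held 10 progenitor genes, some of which (Hes1, Sox9, Ezh2, Bbx and Insc) are reported to be repressed by NFI proteins. In DP against PP 2 were higher (21.3% of all features) and 6 lower (20.2%), with a median of -0.68. In Neuron against DP 1 was higher (33.1% of all features) and 9 were lower (34.2%), with a median of -3.23. Sox9, a transcription factor gene of radial glia, stood at 451 ± 9.88 (SD, n = 3) CPM in PP, 232 ± 60.4 in DP and 11.1 ± 2.78 in Neuron. Its log2 changes were -0.96 and then -4.39. Hes1, the Notch target that keeps progenitors undifferentiated, stood at 115 ± 16.9, 60.2 ± 13.9 and 0.665 ± 0.110 CPM, with log2 changes of -0.93 and then -6.48. Gli3, a mediator of hedgehog signalling, fell by 1.09 from PP to DP, and Hes5, another Notch target, fell by 6.43 from DP to Neuron. From PP to DP the log2 change of Hes5 was -0.57 (adjusted p = 0.158), and with the library set as a block -0.62 (adjusted p = 0.000738). That value turned on single libraries: it was -1.05 without the DP library L223 (adjusted p = 0.00405) and -0.24 without the PP library L222 (adjusted p = 0.558). Ezh2, which encodes the methyltransferase of Polycomb complex 2, and Insc were the 2 genes that rose from PP to DP. Ezh2 rose by 0.51 (adjusted p = 4.84e-05), at 223.7 ± 5.23, 318 ± 3.50 and 193 ± 9.52 CPM. It fell by 0.72 from DP to Neuron (adjusted p = 6.48e-07). Bbx, a gene for an HMG-box protein, stood at 148 ± 12.7 and 143 ± 7.21 CPM in PP and DP and fell by 1.28 from DP to Neuron. Insc, the spindle-orientation gene inscuteable, was below 1 CPM throughout, at 0.0854 ± 0.0571, 0.560 ± 0.0803 and 0.234 ± 0.0636 CPM. Its log2 changes were 2.71 (adjusted p = 0.000501) and then -1.27 (adjusted p = 0.00996). The second call was lost without the Neuron library L357 (-1.04, adjusted p = 0.0547).

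The third list held 15 neuronal genes tied to NFI in cerebellar granule neurons, of which 14 were tested, since Gabra6 had no symbol match. In DP against PP 9 were higher (21.3% of all features) and 5 lower (20.2%), with a median of 0.89. In Neuron against DP 11 were higher (33.1% of all features) and 3 lower (34.2%), with a median of 1.92. Cntn2, an axonal adhesion molecule gene, went from 26.4 ± 20.6 (SD, n = 3) CPM in PP through 229 ± 47.0 in DP to 5114 ± 226 in Neuron. Its rises were 3.12 and then 4.48 on the log2 scale. Dcc, the netrin receptor gene, rose by 3.49 from PP to DP and Tubb3, the gene of the neuron reporter, by 2.73. Slit3, a secreted guidance cue gene, rose by 3.51 from DP to Neuron, and Robo1, a receptor gene for Slit proteins, by 3.40. Efnb1 and Wnt7a fell in both steps, by 0.74 and 1.54 from PP to DP and by 1.18 and 0.64 from DP to Neuron. Grin2c, also lower in Neuron than in DP, was at 1.72 ± 0.219, 9.93 ± 1.94 and 0.255 ± 0.0300 CPM. It rose by 2.53 (adjusted p = 1.24e-06) and then fell by 5.28 (adjusted p = 2.45e-09). Without the DP library L223 the second change of Wnt7a was -0.41 (adjusted p = 0.00331).

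The fourth list held 23 transcription factor, Notch and chromatin genes, of which Sox2 and Sox9 also stand in the second list. In DP against PP 10 were higher (21.3% of all features) and 4 lower (20.2%), with a median of 0.16 against -0.02 over all features. In Neuron against DP 7 were higher (33.1% of all features) and 14 lower (34.2%), with a median of -1.29 against -0.04. Bcl11b, which sets projection neuron identity, rose by 2.06 from PP to DP. Hmga2, a chromatin protein gene of young stem cells, fell by 1.91 from PP to DP and by 5.68 from DP to Neuron. Notch1 stood at 1447 ± 66.5 (SD, n = 3) CPM in PP, 958 ± 160 in DP and 23.9 ± 13.5 in Neuron. Notch1 fell by 5.32 from DP to Neuron (adjusted p = 4.86e-08), and its change of -0.59 from PP to DP did not pass (adjusted p = 0.109), though it did with the library set as a block (-0.63, adjusted p = 0.0358) and without the Neuron library L224 (-0.59, adjusted p = 0.00320). Lhx2, a patterning factor gene of the cortex, stood at 631 ± 29.4, 818 ± 85.2 and 332 ± 33.3 CPM, and Rbpj, the DNA-binding partner of Notch, at 101 ± 7.44, 129 ± 15.8 and 87.3 ± 1.65 CPM. Pou3f2 stood at 128 ± 19.5, 143 ± 36.6 and 43.7 ± 12.4 CPM and Zbtb20 at 576 ± 49.1, 615 ± 55.3 and 177 ± 23.2 CPM, so both were lowest in Neuron. Ski, a corepressor gene, stood at 275 ± 5.84, 153 ± 25.5 and 195 ± 10.5 CPM.

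**Figure D4:**
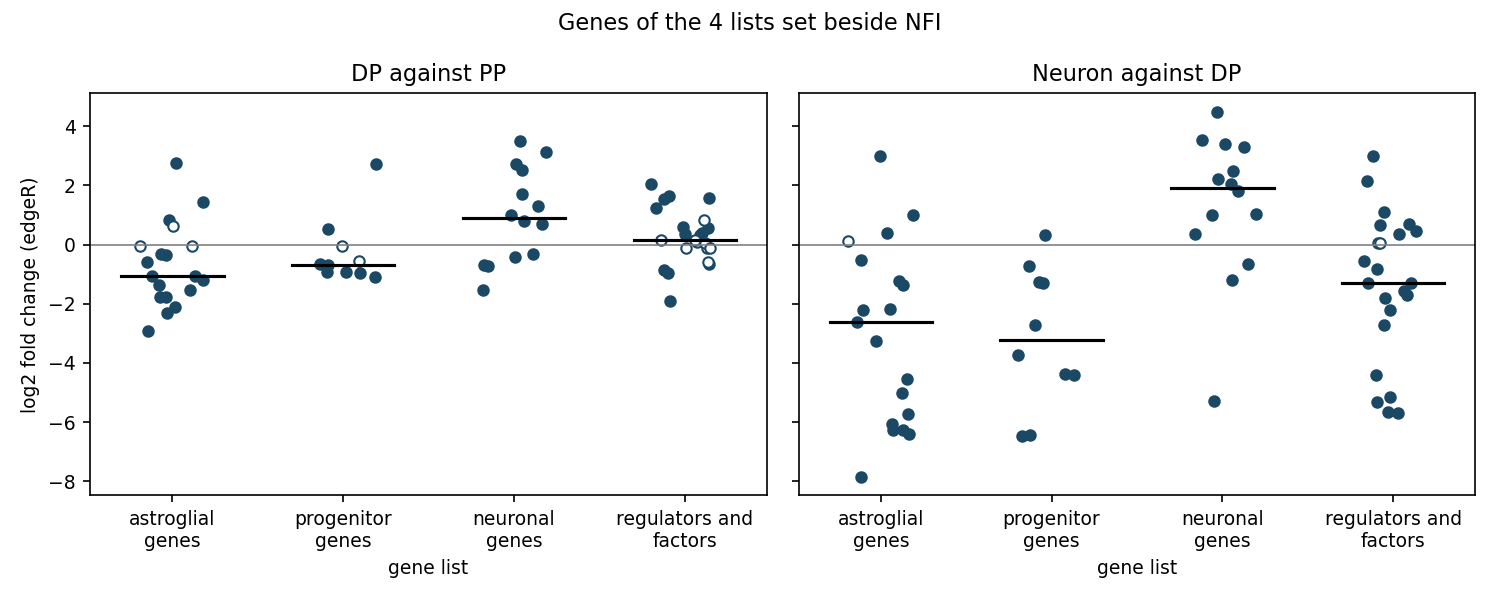
Fitted log2 fold change (vertical axis) of the tested genes of the 4 lists (horizontal axis) from PP to DP (left) and from DP to Neuron (right). Filled points passed the adjusted threshold, open points did not, and bars are medians; the astroglial and progenitor medians lie below 0 in both steps and the neuronal medians, at 0.89 and 1.92, above.

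Markers of other cells moved between the fractions as well. Map2 had no symbol match. The summed level of the 7 other neuron markers was 159 to 364 CPM in PP, 1931 to 2714 CPM in DP and 9251 to 9934 CPM in Neuron. In DP against PP 7 of 7 were higher, against 21.3% of all features. In Neuron against DP 7 of 7 were higher, against 33.1%. Tubb3, the gene of the neuron reporter used in the sort, is among these 7. The sum of 9 markers of ventral cells and interneurons was 5.59 to 56.9 CPM in PP, 30.4 to 164 CPM in DP and 395.4 to 433 CPM in Neuron. That of 5 astrocyte markers was 30.1 to 53.6, 4.22 to 8.91 and 0.438 to 0.609 CPM, with S100b and Gjb6 under 0.1 CPM on average. Red blood cell genes, 5 in number, summed to 5359 to 9995 CPM in PP, 11.7 to 77.3 CPM in DP and 5.69 to 8.80 CPM in Neuron. The sum of 7 meningeal fibroblast markers was 13.5 to 94.3, 3.72 to 8.97 and 0.691 to 1.65 CPM, with Foxd1 under 0.1 CPM on average. That of 5 pericyte markers was 31.7 to 57.3, 8.59 to 13.4 and 2.70 to 3.17 CPM. Among neuron types, 5 Cajal-Retzius markers summed to 4.13 to 7.44 CPM in PP, 53.2 to 60.5 CPM in DP and 808 to 921 CPM in Neuron. Most of the Neuron sum came from Reln alone, at 812 ± 61.0 (SD, n = 3) CPM. In DP against PP 4 of 5 were higher, against 21.3% of all features. In Neuron against DP 4 were higher, against 33.1%, and 1 lower, against 34.2%. The lower gene was Ebf2, at 8.88 ± 1.68 CPM in DP and 3.43 ± 0.529 in Neuron. The sum of 5 oligodendrocyte precursor markers was 15.1 to 16.5, 9.55 to 15.6 and 1.28 to 1.52 CPM, with Sox10 under 0.1 CPM on average. That of 6 endothelial markers was 6.74 to 21.1, 7.96 to 9.38 and 1.67 to 3.76 CPM. Microglia markers, 5 in number, summed to 7.28 to 9.18, 4.56 to 5.11 and 1.45 to 2.44 CPM, with Aif1 under 0.1 CPM on average, and 4 choroid plexus markers to 17.9 to 63.1, 15.7 to 63.8 and 1.24 to 1.70 CPM. The part of these cells in the levels of the NFI genes was not tested.

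Around the 4 members, 49 other features lay within 100 kb, and 35 of them were tested. In DP against PP 13 were higher, against 21.3% of all features, and 6 lower, against 20.2%. Of all features 41.4% were called in either direction. In Neuron against DP 10 were higher, against 33.1% of all features, and 15 lower, against 34.2%. In either direction 67.3% of all features were called, a share near that of the neighbours. Their median log2 changes were 0.07 and -0.21, against -0.02 and -0.04 over all features. Each member is overlapped by a gene on the opposite strand with a mean above 1 CPM in at least 1 fraction, which for Nfic was PP alone. No source used here says how counting treated the strand, so reads of such pairs may be mixed. E130114P18Rik, a protein-coding gene at chr4:97234824-97444769 on the minus strand, starts 5344 bases inside Nfia and shares 4 exonic bases with it. It stood at 66.6, 64.1 and 61.7 CPM in PP, 79.0, 79.6 and 88.4 CPM in DP and 31.7, 23.2 and 30.2 CPM in Neuron. From PP to DP E130114P18Rik rose by 0.36 on the log2 scale (adjusted p = 0.0160), as Nfia did. That call was lost without the DP library L394 (0.31, adjusted p = 0.0617) and under total counts alone (0.27, adjusted p = 0.0547). E130114P18Rik fell by 1.54 from DP to Neuron (adjusted p = 1.20e-07), a step in which Nfia rose. Gm11266, an antisense gene inside Nfib with no shared exonic base, stood at 25.3 ± 2.68 (SD, n = 3) CPM in PP, 35.6 ± 4.94 in DP and 24.4 ± 2.25 in Neuron. Gm11266 rose by 0.49 (adjusted p = 0.00560) and then fell by 0.54 (adjusted p = 0.00142), while Nfib rose in both steps.

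Gm16104, an antisense gene that shares 72 exonic bases with Nfic, stood at 1.21, 1.37 and 1.52 CPM in PP, 1.18, 0.523 and 0.603 CPM in DP and 0.117, 0.183 and 0.0773 CPM in Neuron. It fell by 2.54 from DP to Neuron (adjusted p = 0.000201), in the same direction as Nfic, and reads of the shared bases cannot be told apart. Inside Nfix, G430095P16Rik shares 137 exonic bases with it and stood at 7.26 ± 1.20 (SD, n = 3), 7.34 ± 2.25 and 5.86 ± 0.479 CPM. Its log2 changes of 0.02 (adjusted p = 0.963) and -0.32 (adjusted p = 0.183) did not pass, though the second did without the DP library L356 (-0.50, adjusted p = 0.0402) and when scaled by total counts alone (-0.55, adjusted p = 0.0334). Lyl1, a basic helix-loop-helix factor gene of blood cells that shares 4 bases with Nfix, was at 1.61 ± 0.438, 1.04 ± 0.251 and 0.398 ± 0.0607 CPM. Among neighbours that do not overlap a member, Celf5, an RNA-binding protein gene of neurons 28222 bases from Nfic, rose by 1.01 and then by 3.33, against the fall of Nfic. Cacna1a, a calcium channel gene 59630 bases from Nfix, rose by 1.29 and then by 2.76.

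**Figure D5:**
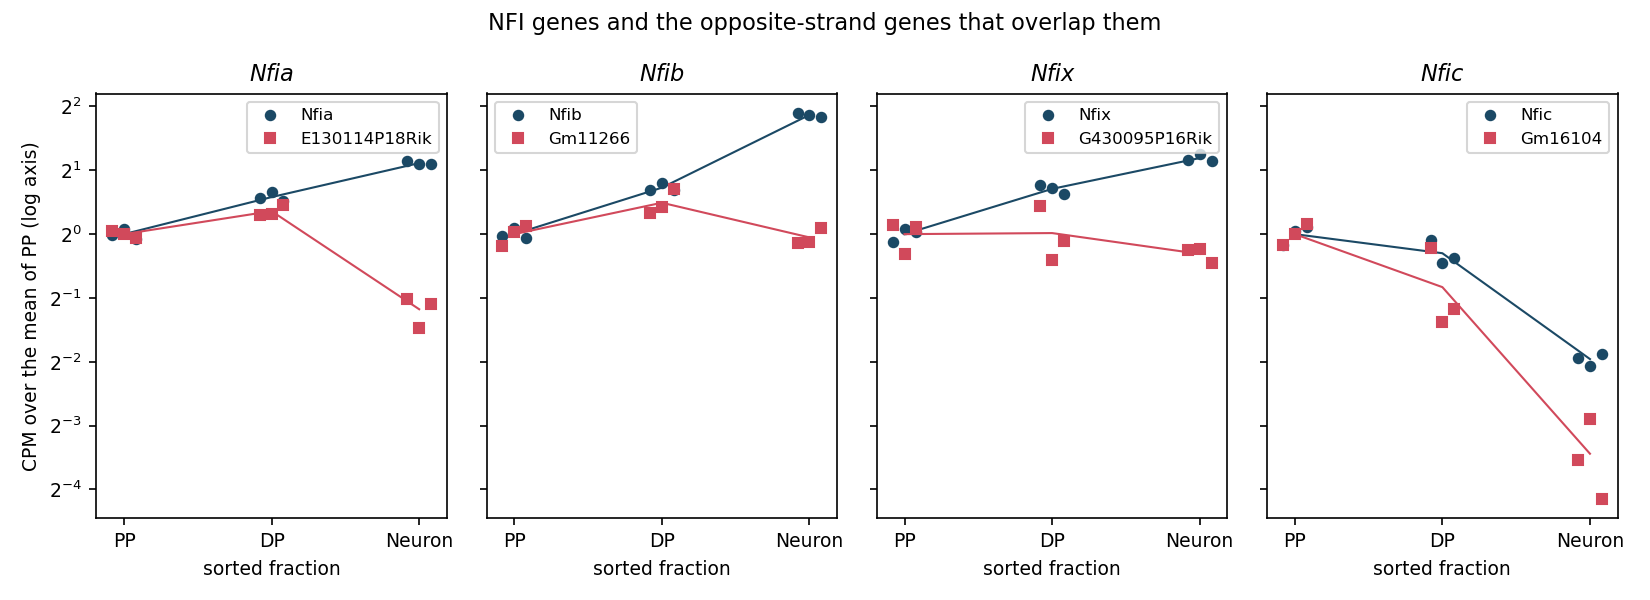
Level of each NFI gene (blue circles) and of a gene on the opposite strand that overlaps it (red squares) over its own mean in PP (vertical log axis) in the libraries of each fraction; lines join the means. E130114P18Rik and Gm11266 turn down from DP to Neuron while Nfia and Nfib rise, and Gm16104 falls with Nfic.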

How the data were processed

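RNA was counted in 9 libraries, 3 per sorted fraction, from 18 samples in the labels, since each library had a single-read and a paired-end run. The authors deposited whole-number counts per gene and run, and the submitters' processing notes give the build mm9 and list, without saying what each did, featureCounts 1.4.4, TopHat2 2.0.10, DESeq2 1.4.5, BWA 0.5.9-r16, DESeq, Bowtie2 2.2.1, bcl2fastq 1.8.2, Cufflinks 2.1.1 and bedtools 2.16.2. The authors' comparison tables hold a normalised signal per library, and 319212 of 319212 of these values equalled the summed counts over 1 size factor. The deposited tables also give the authors' log2 fold changes, a standard error as a score per gene, and p-values.

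Counts of both runs of a library were added and tested with the quasi-likelihood test of edgeR 4.0.16 (R 4.3.3) after filterByExpr and TMM scaling, in 1 fit of the 9 libraries by group, with Benjamini-Hochberg adjustment at 0.05 over 18627 features. CPM were computed from the counts, as mean ± SD. Fold changes are fitted values, and SE were worked back from the fold change and the test statistic of the fit. The 95% intervals take a normal quantile of these SE, so they are approximate and somewhat narrow for so few libraries. Shares, sums and ratios were tested with an exact permutation test of the F statistic, the spread between the 3 groups over that within them. Its p speaks to any difference among the 3 groups and to no single step or direction. That test treated all 9 libraries as exchangeable and left the library sets, given below, out of account. It was not repeated within sets. The edgeR fit was also run on simulated counts with known changes. These had the same spread for all genes and no library sets, unlike the data, and no result here rests on them. The members and lists were chosen with earlier results of these data known. Named were the members, the 3 nearest patterns of each, the 3 largest changes per list and step past the threshold, without overlap and with at least 10 CPM, a group of 11 NFI-related genes whatever their values, and neighbours with at least 1 CPM. A gene that this rule names is not reported here. Efnb1, Wnt7a and Grin2c were named after their values were seen. The design text states biological replicates, and libraries of 1 group differed by more than sampling noise (their chi-square was 8.48 to 31.3 per degree of freedom). Library numbers stand in no label, so columns were tied to groups. They run in 3 sets of consecutive numbers, and libraries of 1 set deviated together (9 pairs, correlations 0.130 to 0.345, against -0.319 to 0.0106 between sets). Deviations were taken from group means, so values above 0 within sets push those between sets below 0, and the latter are no separate comparison. The set was used as a replicate block in an alternative chosen after seeing the data. Sequences come from RefSeq (GRCm38.p6), whose coordinates were not joined to mm9. DESeq2 1.42.0 was run as an alternative.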

Additional observations from a re-analysis of the deposited data

How the results depend on the processing

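Each comparison of the 4 members was recomputed under 20 other settings: DESeq2, other scalings, no filter, only the groups compared, each kind of run alone, each library or library set left out, and the replicate block. Nfia, Nfib and Nfix kept direction and call in all 20 in DP against PP, Neuron against DP and Neuron against PP, as did Nfic in the comparisons with Neuron. Nfic in DP against PP missed the threshold with only the 2 groups compared (-0.30, adjusted p = 0.0585), with single-read runs (-0.30, adjusted p = 0.0669), without the set L355 to L357 (-0.20, adjusted p = 0.315) and without L393 to L395 (-0.19, adjusted p = 0.325). It was -0.48 (adjusted p = 0.00219) without L222 to L224 and ranged from -0.40 to -0.23 with 1 library left out. With the library set as a replicate block it was -0.30 (adjusted p = 0.0326), the count of calls in DP against PP was 9530 in place of 7714, and the block changed no call of a member. Without L355 to L357 that count was 4358. The contrast of the steps, total counts as the only scaling and the block were added after seeing the data. Between the steps, Nfib missed the threshold under total counts (0.28, adjusted p = 0.0506) and without each set (0.37, 0.44 and 0.41), with 0.36 to 0.48 over single libraries left out. Nfix passed it under total counts (-0.36, adjusted p = 0.0364), and Nfia ranged from -0.11 to 0.023 with 1 library left out.

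For 48 other genes, 1846 of 1918 values kept direction and call, 45 lost the call, 19 gained it and 8 changed sign; the cause was not tested. In DP against PP, G430095P16Rik was -0.074 under total counts, -0.052 with single-read runs, -0.16 without L222 to L224, -0.0057 with the replicate block and -0.24 to 0.19 with 1 library left out. Bbx ranged from -0.096 to 0.020 and Pou3f2 from -0.061 to 0.30 with 1 library left out. With the replicate block, Rnf26 and Lyl1 passed the threshold (-0.26, adjusted p = 0.0487, and -0.63, adjusted p = 0.0107). With 3 libraries a group and 1 embryonic stage, small differences between PP and DP in Nfic and in genes near 1 CPM are at the limit of what these libraries can show.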
